A study of Mus musculus with 8 samples.

Results

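Dietary conjugated linoleic acid (CLA) was set directly against linoleic acid (LA) in epididymal fat of polygenic obese mice at day 14 of a feeding trial. The data were the 4 arrays of 2 channels made at day 14 (arrays 1 to 4), chosen by their titles out of 8 arrays in the series. The other 4 were made at day 5 and enter only the checks named as such. On every day 14 array a pool of CLA-fed mice was hybridised together with a pool of LA-fed mice. Each pool held 4 or 5 animals, and all animals came from the polygenic obese stock, the LA-fed controls included. The CLA pool carried Cy5 on arrays 1 and 2 and Cy3 on arrays 3 and 4. The sources used here name neither the mouse line, sex and age nor the isomers and dose of the CLA. Nor do they say whether arrays share a pool. Each p-value and standard error reflects the spread between arrays with CLA in the same dye, which may be technical. The difference between the dye orientations is not part of it. The arrays gave ratios and no intensities, so whether the defining markers of adipocytes were well expressed in this tissue could not be examined.

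CLA is a family of linoleic acid isomers with conjugated double bonds, studied for lowering body fat in mice. White fat stores triglyceride in large adipocytes, each with a single lipid droplet coated by perilipins, and secretes hormones such as adiponectin. It also holds vessels, fibroblasts, macrophages and, on its surface, mesothelium, and it can host beige adipocytes that burn fuel through the uncoupling protein Ucp1.

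Values are log2 ratios of CLA over LA, and 4 values given together for a gene are those of arrays 1 to 4 in turn. Both the log base and the direction were inferred. The deposited numbers were read as log10 ratios, each worth 3.32 log2 units; if they were deposited on a log2 scale, all ratios and errors below would be 3.32 times too large, while calls and signs would stand. Values were used with the sign as deposited on all arrays. Neither the labels nor the table name the numerator, so CLA over LA is the likely direction and not a settled one: were it LA over CLA, every sign would be opposite. On these 4 arrays, 473 probes without a single gene symbol had a dye term over 2 log2 units in size. Only 2 such probes had a 4-array mean over 2 in size. Of the 473, 472 were below 0 on arrays 1 and 2 and above 0 on arrays 3 and 4. So large a dye term nearly fixes opposite signs between the orientations, though not which of them is below 0. Many large dye terms beside few large means are the pattern of spots bright in a single dye on arrays whose sign had already been turned. Across the 16504 genes, arrays of the same orientation correlated with r of 0.68 (arrays 1 and 2) and 0.72 (arrays 3 and 4), whereas arrays of opposite orientation had r from −0.38 to −0.29; genes are not independent replicates. In the 1030 genes with a pair of probes, the probes' means over the 4 arrays correlated with r = 0.31 and their dye terms with r = 0.058. The fit kept a dye term. With arrays 3 and 4 turned instead, limma called 5248 genes, 2780 higher and 2468 lower, and 132 of them were among the genes called below, 18 in the same direction. Of the 192 genes named here, 131 then had the other sign. By construction, a turned value equals the dye term of the fit used here.

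Of 16504 genes, 260 (1.58%) passed a Benjamini-Hochberg adjusted p under 0.05 in limma's fit of the 4 arrays with a dye term, and these are called changed below. Among them 88 (0.533%) were higher with CLA and 172 (1.04%) lower. The called rises had a median of 0.75 and the called falls a median size of 0.74 log2 units. A log2 ratio over 1 in size was reached by 19 of the rises and 38 of the falls. As deposited, 227 of the 260 had all 4 arrays on the same side of 0, and 74 had all 4 at least 0.5 log2 units from 0, of which 25 were above and 49 below. Dropping array 1, array 2 or the dye term left Ucp1 as the 1 gene called. Without array 3, 68 genes were called, 40 of them among the 260, and without array 4, 156 genes, 98 of them among the 260. At an unadjusted p under 0.05, 7.46% of all genes lay above 0 and 11.7% below, which are the shares to set beside such counts for the lists. Beside a count of called members the share to set is 1.58%. The lists were written with earlier results of these data known, so their shares describe the members and test nothing. Of the 96 genes named here that were not called, 27 had a dye term larger in size than their mean. With all 8 arrays in the fit, 0 genes were called (limma, 1612 at an unadjusted p under 0.05). Called genes lay further from 0 on arrays 3 and 4, with a median of 1.03 log2 units in the direction of the call, than on arrays 1 and 2 (0.54), and 192 of the 260 were larger there. Over all genes the ratios also spread more widely on arrays 3 and 4. The scaled median absolute deviation was 0.45 and 0.38 there, against 0.35 and 0.28 on arrays 1 and 2. A wider spread there was thus not confined to the called genes. Whether it accounts for the larger ratios of the called genes was not tested.

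**Figure D1:**
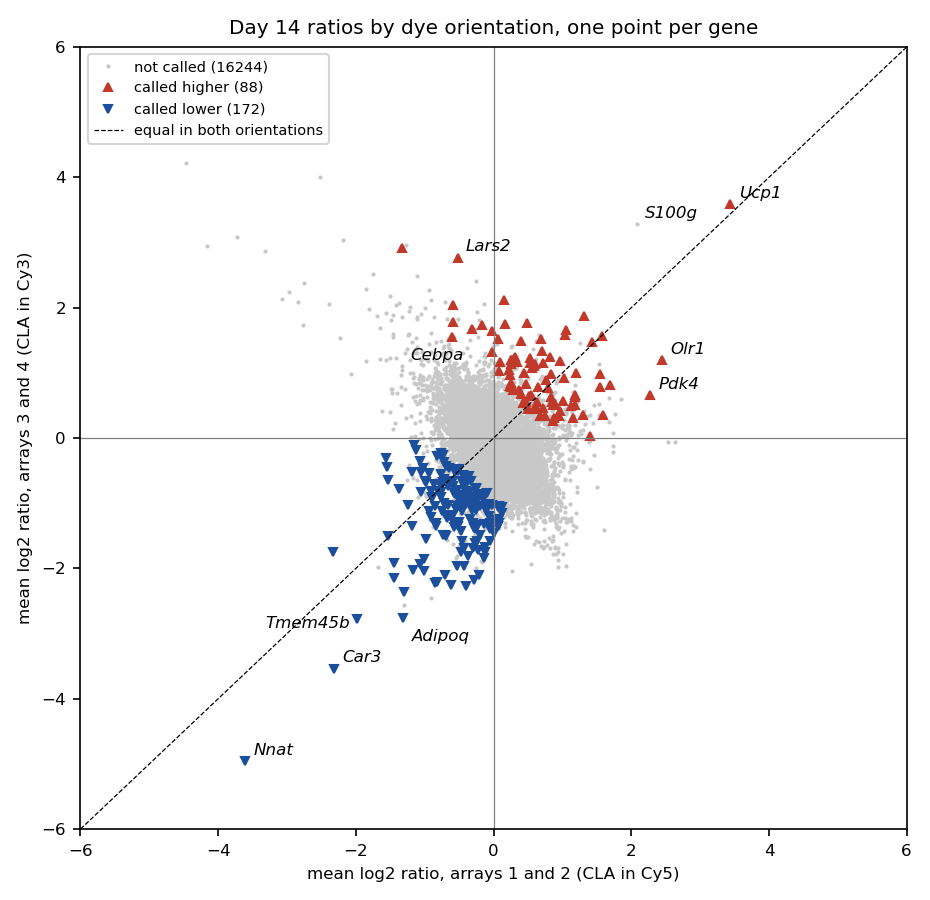
Mean log2 ratio of each gene on arrays 1 and 2 (horizontal, CLA in Cy5) against arrays 3 and 4 (vertical, CLA in Cy3). Red and blue triangles are the 88 genes called higher and the 172 called lower, grey dots the genes not called, and the dashed line marks equal ratios in both orientations; Ucp1 lies far out near that line, Nnat lies further from 0 on arrays 3 and 4, and Lars2 lies where the orientations disagree in sign.

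The largest rise was that of Ucp1, the proton carrier that lets brown and beige adipocytes release energy as heat. Its log2 ratios were 3.21, 3.66, 3.71 and 3.47, and their mean was 3.51 ± 0.10 (SE, n = 4 arrays), 11.4-fold, with a limma adjusted p of 0.00252. All 4 arrays lay close together and far from 0. The sign of Ucp1 on these arrays had entered an earlier choice to read the ratios as CLA over LA, so its direction is no independent finding. Of 19 measured genes of brown and beige fat, 4 rose and 0 fell (21.1%, against 1.58% of all genes), and the list median was 0.078 against 0.00096 over all genes. The other 3 that rose were Cox8b at 0.87 ± 0.066 and Cox7a1 at 0.61 ± 0.068, both subunits of cytochrome oxidase found in brown fat and muscle, and Elovl3, an elongase of very long fatty acids, at 0.82 ± 0.11. Cox8b read 0.62, 0.59, 1.11 and 1.15, so it was higher on the arrays with CLA in Cy3. Cidea, a droplet protein of brown fat, stood at 0.21 ± 0.068, the hormone gene Fgf21 at 0.43 ± 0.071 and Cpt1b, the muscle-type carnitine palmitoyltransferase, at 0.29 ± 0.076, none of them called. Cidea read −0.21, −0.29, 0.71 and 0.63, so its sign followed the dye. Of the 19 genes, 12 lay above 0 and 7 below, and 7 and 2 did so at an unadjusted p under 0.05 (limma). The lowest was Pparg at −0.59 ± 0.095, not called. In bulk tissue, more cells of a type and more RNA per cell cannot be told apart, and this holds for every list below.

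Nnat, an imprinted gene, fell furthest. Its product neuronatin is a small membrane protein, and it read −3.05, −4.17, −5.62 and −4.28, a mean of −4.28 ± 0.27 and a 19.5-fold difference (adjusted p = 0.0202). Mest, an imprinted gene that is expressed with adipocyte enlargement in mice, read −1.47, −1.14, −2.14 and −2.58 and averaged −1.83 ± 0.11. All 4 arrays were far below 0 for both. Of 21 measured imprinted genes these 2 fell and 0 rose, and the list median was −0.070. The growth factor gene Igf2 stood at −0.73 ± 0.12 and Sgce at −0.44 ± 0.071, neither called.

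**Figure D2:**
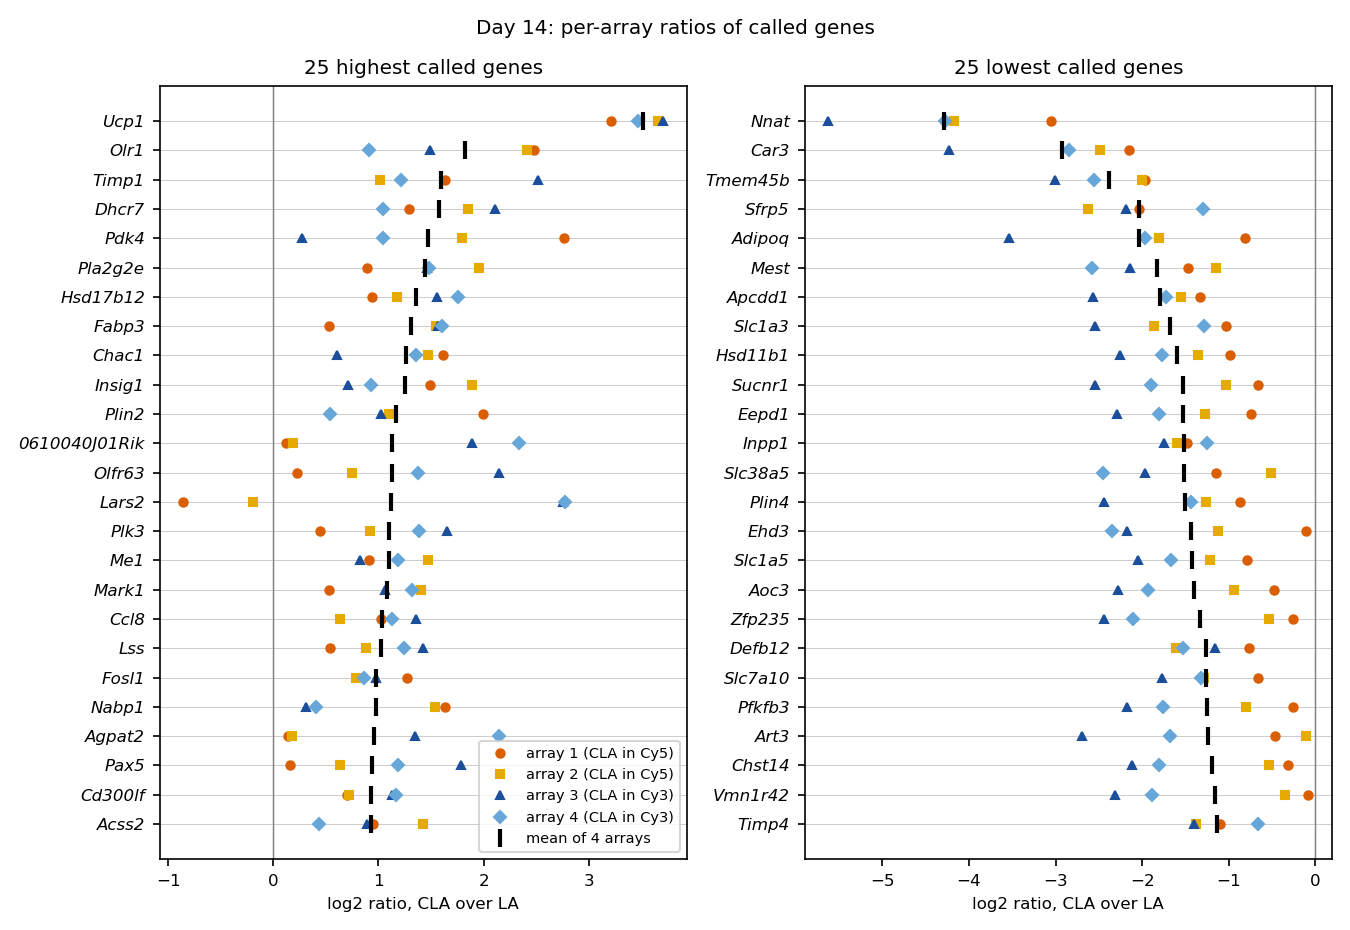
Log2 ratio of CLA over LA (horizontal) on each day 14 array for the 25 highest (left) and 25 lowest (right) called genes, ordered by their mean. Circles and squares are arrays with CLA in Cy5, triangles and diamonds arrays with CLA in Cy3, and black ticks the 4-array mean; all 4 arrays of Ucp1 lie above 3, whereas those of Lars2 lie on both sides of 0.

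Adipocyte genes of the lipid droplet and of lipolysis lay mostly below 0. Of 25 measured members 7 fell and 1 rose (32%, against 1.58% of all genes). The list was written with earlier results of these data known. It also holds adipocyte genes of other functions, such as Car3 and Slc7a10, which are among the falls, so its share is no independent support. The median was −0.34 (by array −0.21, −0.37, −0.38 and −0.25 on arrays 1 to 4), and −0.19 with array 3 left out. Car3, a carbonic anhydrase abundant in adipocytes, read −2.15, −2.49, −4.23 and −2.84, a 7.61-fold fall. The droplet coat gene Plin4 fell by 1.50 ± 0.18 and Cidec, which helps droplets fuse in white fat, by 0.98 ± 0.12, with array 1 near 0. The caveolins Cav1 and Cav2, coat proteins of the membrane pits that fill the adipocyte surface, fell by 0.74 ± 0.076 and 1.06 ± 0.087. Slc7a10, a neutral amino acid transporter of white adipocytes, fell by 1.26 ± 0.13. Plin2, the coat protein of small droplets in many cell types including macrophages, moved the other way. Plin2 read 1.99, 1.10, 1.03 and 0.54 and averaged 1.16 ± 0.17 (adjusted p = 0.048). Plin1, the main perilipin of white adipocytes, stood at −0.66 ± 0.12 and G0s2, an inhibitor of adipose triglyceride lipase, at −0.51 ± 0.076, with adjusted p of 0.0657 and 0.0513. The lipases Pnpla2 and Lipe stood at −0.39 ± 0.19 and −0.43 ± 0.10 and were not called.

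Among 20 measured adipokines and secreted proteins of fat, 2 fell and 0 rose. Adipoq, which encodes the hormone adiponectin, read −0.82, −1.80, −3.54 and −1.97 and averaged −2.03 ± 0.29 (adjusted p = 0.0473). Array 1 was nearest 0 and array 3 furthest from it. Sfrp5, a secreted Wnt inhibitor made by adipocytes, read −2.04, −2.62, −2.18 and −1.30, all far below 0. Retn, the gene of resistin, had all 4 arrays below −1, at −1.48, −1.89, −2.85 and −1.11, but was not called (adjusted p = 0.0526). The leptin gene Lep, in contrast, read −0.34, −0.19, 0.22 and 0.33, so its sign followed the dye and its mean was 0.0039 ± 0.072. The retinol carrier gene Rbp4 stood at −0.71 ± 0.12 and Nampt, an enzyme of NAD synthesis also found in blood, at 0.51 ± 0.086, both uncalled.

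The genes that make fatty acids and triglyceride did not move in a single direction. Of 27 measured genes of fatty acid synthesis, desaturation and elongation 5 rose and 1 fell (22.2%, against 1.58% of all genes), with a median of 0.088. Elovl3, given above, is among the rises. Hsd17b12, a reductase of the elongation cycle, read 0.94, 1.18, 1.55 and 1.76, all above 0. Me1, the malic enzyme that supplies NADPH, rose by 1.10 ± 0.12 and Pgd, a pentose phosphate enzyme that does so too, by 0.67 ± 0.075, although Pgd was below 0 on arrays 1 and 2. Acss2, which makes acetyl-CoA from acetate, rose by 0.93 ± 0.12. Thrsp (Spot 14), a lipogenic regulator, read −1.58, −1.49, −1.08 and −0.20 and fell by 1.09 ± 0.15. The core enzymes were not called, with Fasn at 0.19 ± 0.086, Acly at 0.59 ± 0.23, Acacb at 0.92 ± 0.21 and the desaturase Scd1 at 0.081 ± 0.12. Fasn read 0.50, 0.84, −0.24 and −0.34 and Scd1 −0.61, −0.068, 0.29 and 0.71, so the signs of both followed the dye. In triglyceride and phospholipid synthesis, 1 of 18 measured members rose and 2 fell. Dgat2, which joins the last fatty acid to triglyceride, read −1.68, −1.41, −0.64 and −0.25 and fell by 0.995 ± 0.10. Pck1, which feeds glycerol synthesis in fat, fell by 0.82 ± 0.11, whereas the acyltransferase Agpat2 read 0.14, 0.18, 1.35 and 2.15. Agpat2 was thus higher on the arrays with CLA in Cy3.

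Cholesterol synthesis is driven by SREBP2, a factor that is held in the endoplasmic reticulum by INSIG proteins while sterols are plentiful. Of 21 measured genes of this pathway 3 rose and 0 fell (14.3%, against 1.58% of all genes). In all, 16 lay above 0. At an unadjusted p under 0.05, 14 lay above and 2 below 0, against 1232 and 1923 of all 16504 genes. The median was 0.35 (by array −0.0051, 0.49, 0.65 and 0.31 on arrays 1 to 4), so array 1 did not show the shift. Dhcr7, which makes cholesterol from its immediate precursor, read 1.29, 1.85, 2.10 and 1.04 (adjusted p = 0.0409). Insig1, itself a sterol-regulated gene, read 1.49, 1.89, 0.71 and 0.93 (adjusted p = 0.0206). Lss, which closes the sterol rings, read 0.54, 0.88, 1.42 and 1.25 (adjusted p = 0.0237). All 4 arrays were above 0 for each of these. Of the uncalled members, Ebp stood at 0.84 ± 0.22, Fdps at 0.67 ± 0.11, Idi1 at 0.56 ± 0.15 and Sqle at 0.37 ± 0.11. Fdft1, the first committed sterol enzyme, stood at −0.35 ± 0.088 and Insig2 at −0.37 ± 0.067, both uncalled too. Insig2 read 0.18, 0.10, −0.88 and −0.87, so its sign followed the dye.

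Promoters of called genes of the sterol and stress lists are printed so that motifs of their known regulators can be seen in them. They are those of Insig1, Lss and Chac1, which have a single annotated start. Dhcr7 has 3 annotated starts, of which 1 held no motif searched, 1 held CACGTG alone and 1 held CCAAT on both strands, and it is not printed. They are RefSeq sequences of GRCm38.p6, from 250 bases before to 50 bases after the annotated start, 5′ to 3′ on the gene's strand. Capitals mark motif matches on either strand: CCAAT (read by NF-Y), CACGTG (an E-box) and TGATGNAA (an element read by C/EBP and ATF factors), and in these promoters the matches do not overlap. TCACNCCAC, the core of a sterol regulatory element, was searched too and is in none of the 3. Insig1 lies at chr5:28071162-28071461 on the + strand, Lss at chr10:76531355-76531654 on the + strand and Chac1 at chr2:119350992-119351291 on the + strand.
Insig1: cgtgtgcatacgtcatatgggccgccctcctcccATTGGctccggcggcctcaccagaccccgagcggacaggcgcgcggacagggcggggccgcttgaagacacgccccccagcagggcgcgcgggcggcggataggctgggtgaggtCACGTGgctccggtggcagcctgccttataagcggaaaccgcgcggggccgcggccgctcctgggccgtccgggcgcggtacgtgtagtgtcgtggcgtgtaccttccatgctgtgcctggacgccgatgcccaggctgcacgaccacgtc
Lss: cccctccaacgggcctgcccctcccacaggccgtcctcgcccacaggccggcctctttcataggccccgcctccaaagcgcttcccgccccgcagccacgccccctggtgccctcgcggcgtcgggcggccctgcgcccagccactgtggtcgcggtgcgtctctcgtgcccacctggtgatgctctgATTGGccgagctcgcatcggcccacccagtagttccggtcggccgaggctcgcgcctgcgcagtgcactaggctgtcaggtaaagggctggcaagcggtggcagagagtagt
Chac1: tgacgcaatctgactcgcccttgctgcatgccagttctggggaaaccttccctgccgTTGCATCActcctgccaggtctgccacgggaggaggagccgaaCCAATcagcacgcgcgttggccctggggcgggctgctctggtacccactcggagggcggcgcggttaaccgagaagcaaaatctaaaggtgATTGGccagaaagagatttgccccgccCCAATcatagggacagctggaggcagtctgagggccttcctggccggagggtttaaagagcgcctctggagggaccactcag
CCAAT was present in 17 of 22 annotated promoters of the measured sterol genes (77.3%), against 37.4% of all 32851 promoters in the table. CACGTG was present in 4 of them (18.2%, against 7.15%). The sterol regulatory element core TCACNCCAC was present in 1 (4.55%, against 1.24%). TGATGNAA was present in 9 of 33 promoters of the measured integrated stress response genes (27.3%, against 3.97%). The motifs were not confined to a single list. TGATGNAA was in 3 of the 22 sterol promoters (13.6%), and of the 33 stress promoters 17 held CCAAT (51.5%) and 4 CACGTG (12.1%). Promoters matched by symbol for 17 of the 21 sterol genes and 27 of the 33 stress genes, with several starts for some. These matches are descriptions of sequence and were not tested.

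The integrated stress response raises genes of amino acid supply through the factor ATF4. Of its 33 measured genes, 1 rose and 0 fell (3.03%, against 1.58% of all genes), with a median of 0.074. That gene was Chac1, which degrades glutathione, at 1.62, 1.47, 0.60 and 1.36 and 1.26 ± 0.13 in the mean (adjusted p = 0.0313). The best-known amino acid target Asns stood at −0.013 ± 0.080 and Atf3 at 0.30 ± 0.093, while the serine synthesis gene Phgdh stood at −0.82 ± 0.20 and Ddit4 at −0.49 ± 0.074, all uncalled. For the unfolded protein response and heat shock, 0 of 25 measured genes were called, and 5 lay above 0 at an unadjusted p under 0.05 (limma), among them the chaperone gene Hspa5 at 0.49 ± 0.13 and Dnajb9 at 0.58 ± 0.15. Of 34 measured genes of oxidative stress and glutathione, 2 rose and 1 fell. Mgst2, a microsomal glutathione transferase, rose by 0.79 ± 0.11 and sulfiredoxin, Srxn1, by 0.53 ± 0.074. The glutathione transferase Gstm3 read 0.074, −0.61, −1.78 and −1.45 and fell by 0.94 ± 0.13, with array 1 just above 0. Gstm1 stood at −0.64 ± 0.12 and Txnrd1, thioredoxin reductase, at 0.52 ± 0.12, both uncalled.

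Of 17 measured genes of fatty acid uptake and binding 1 rose and 0 fell (5.88%, against 1.58% of all genes). The riser was Fabp3, the fatty acid carrier of heart, muscle and brown fat, at 0.53, 1.55, 1.57 and 1.60 (adjusted p = 0.043), with array 1 well under the others. The white fat carrier Fabp4 read 0.83, 0.92, −0.37 and −0.66 and lipoprotein lipase, Lpl, 0.20, 0.58, −1.03 and −0.68, so both changed sign with the dye and averaged 0.18 ± 0.080 and −0.23 ± 0.10. The fatty acid receptor Cd36 read 0.46, 0.14, −0.81 and −0.58, changed sign with the dye too and averaged −0.20 ± 0.089. In mitochondrial fatty acid oxidation 1 of 23 measured genes rose and 0 fell (4.35%), while 9 lay above and 0 below 0 at an unadjusted p under 0.05. Pdk4, which turns mitochondria from glucose to fat by blocking pyruvate dehydrogenase, read 2.76, 1.80, 0.28 and 1.05 (adjusted p = 0.0459), with array 1 highest and array 3 nearest 0. The carnitine carrier Slc25a20 stood at 0.58 ± 0.10, Acadl at 0.40 ± 0.071 and Cpt1a at 0.24 ± 0.10, none called. Acadl read 0.94, 0.83, −0.15 and −0.012, so its sign followed the dye. Of 53 measured subunits of the respiratory chain and ATP synthase 0 were called (limma), with 0 above and 5 below 0 at an unadjusted p under 0.05, against 7.46% and 11.7% of all genes. They ran from −0.38 (Ndufb3) to 0.22 (Uqcrq).

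For glucose, 1 of 20 measured genes of uptake and glycolysis fell and 0 rose (5%, against 1.58% of all genes). The call was Pfkfb3, which makes the main activator of glycolysis, at −0.26, −0.80, −2.18 and −1.76 (mean −1.25 ± 0.12, adjusted p = 0.0284). It was lower on the arrays with CLA in Cy3. The insulin-responsive transporter gene Slc2a4 read −1.03, −1.48, −1.003 and −0.27, all below 0, and missed the threshold (adjusted p = 0.0535). Pfkl, the liver type of phosphofructokinase, stood at 0.79 ± 0.17 and Pkm, pyruvate kinase, at 0.51 ± 0.077. Of 21 measured insulin signalling genes 0 were called (limma, 0 above and 3 below 0 at an unadjusted p under 0.05), and the lowest was Foxo1 at −0.50 ± 0.090. Of 29 measured adipogenic and nuclear receptor factors 0 were called (limma), 7 lay below and 3 above 0 at an unadjusted p under 0.05. Pparg, the master factor of fat cell formation, read 0.11, −0.33, −1.10 and −1.03, with a mean of −0.59 ± 0.095 (adjusted p = 0.0567). Zfp423, which commits cells to the fat lineage, stood at −0.59 ± 0.093 and Gata2 at −0.50 ± 0.082. Cebpa, the partner of Pparg, read −1.35, −1.32, 0.91 and 1.30, opposite in sign between the orientations, and averaged −0.12 ± 0.089. Srebf1, which drives fatty acid synthesis, averaged −0.46 ± 0.11.

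Breakdown of branched-chain amino acids and proline feeds carbon into fat synthesis in adipocytes. Of 22 measured genes 1 fell and 0 rose (4.55%, against 1.58% of all genes). In this list 20 lay below 0, and the median was −0.27 (by array −0.32, −0.26, −0.36 and −0.14 on arrays 1 to 4). Prodh, the first enzyme of proline breakdown, read −0.63, −0.74, −0.37 and −0.50 and fell by 0.56 ± 0.071. Aldh6a1, of the valine pathway, stood at −0.97 ± 0.16 and was not called.

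Macrophage markers had the highest median of the lists, 0.61, although 0 of 34 measured members were called (limma), against 1.58% of all genes. Of the members 31 lay above 0 and 27 did so at an unadjusted p under 0.05, against 1232 of all 16504 genes. The list median by array was 1.22, 0.51, 0.69 and 0.16 on arrays 1 to 4, positive on each but spread widely. With array 1 left out the macrophage median was 0.39 and that of cholesterol synthesis, the next highest list, 0.37. Gpnmb, a glycoprotein of lipid-laden macrophages, read 1.99, 0.51, 2.01 and 0.91, and Hmox1, which degrades haem, 1.93, 1.14, 1.63 and 0.62. Their means were 1.35 ± 0.29 (adjusted p = 0.095) and 1.33 ± 0.21 (adjusted p = 0.0535). The common macrophage marker Adgre1 (F4/80) read 1.87, 1.02, 0.68 and −0.22, the lipopolysaccharide co-receptor gene Cd14 0.62, 0.51, 0.25 and −0.23 and Trem2, a lipid-sensing receptor, 1.67, 0.69, 1.17 and 0.45, and none was called (adjusted p = 0.115, 0.212 and 0.0834). The macrophage elastase gene Mmp12 read 2.95, 0.76, 1.39 and −0.20 and the lectin receptor gene Clec4d 2.59, 0.92, 1.14 and −0.40, both highest on array 1 and below 0 on array 4. Neither was called, with means of 1.23 ± 0.42 and 1.06 ± 0.35, or 0.68 and 0.65 with array 1 left out, and Clec4d at 0.68 with array 3 left out. Olr1, a scavenger receptor for oxidised lipoprotein on endothelium and macrophages, was called, at 2.48, 2.41, 1.49 and 0.91 (adjusted p = 0.0202). It belongs to the list of cholesterol efflux and lipoprotein handling. There 1 of 18 measured genes rose and 1 fell (11.1%, against 1.58% of all genes). The fall was that of Apoc1, an apolipoprotein, by 0.66 ± 0.083. Uncalled were Msr1, another scavenger receptor, at 0.83 ± 0.21, the phospholipid transfer gene Pltp at 0.55 ± 0.091 and Apoe at −0.36 ± 0.10. Cd300lf, an inhibitory receptor of myeloid cells that no list held, read 0.70, 0.72, 1.13 and 1.16 (adjusted p = 0.0202).

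Lysosomal genes lay mainly above 0, beside the macrophage markers. Of 36 measured proteases, hydrolases and proton pump subunits 3 rose and 0 fell, and the median was 0.30 (by array 0.37, 0.23, 0.44 and 0.012 on arrays 1 to 4). The pump subunits Atp6v1b2 and Atp6v1a rose by 0.63 ± 0.090 and 0.52 ± 0.069. Ctsk, a collagen-cutting cathepsin, read 0.49, 0.46, 0.53 and 0.57, nearly the same on every array. Gla, which clips terminal galactose, stood at 0.97 ± 0.15, cathepsin D, Ctsd, at 0.72 ± 0.15 and Psap, the precursor of saposins, at 0.66 ± 0.16, none called. Psap read −0.086, −0.94, 1.60 and 2.05, so its sign followed the dye. Array 4 gave the smallest median in both lists, and the part of macrophages in the lysosomal values was not tested.

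Among 41 measured chemokines, cytokines and receptors, 1 rose and 0 fell (2.44%, near the 1.58% of all genes). Ccl8, a chemokine that draws monocytes, read 1.02, 0.63, 1.35 and 1.12 (adjusted p = 0.0257). Ccl6 stood at 0.71 ± 0.21, Ccl9 at 0.67 ± 0.20 and Ccl3 at 0.51 ± 0.079, none called. Ccl3 read 1.34, 1.07, −0.25 and −0.13, so its sign followed the dye. The receptor gene Ccr2 stood at −0.56 ± 0.14 and the interferon-induced Cxcl9 at −0.52 ± 0.17, both uncalled. The monocyte attractant Ccl2 averaged −0.23 ± 0.16 and the cytokine gene Tnf 0.23 ± 0.13. Acute phase and complement genes split, with 1 of 23 rising and 2 falling. C5ar1, the receptor of complement fragment C5a on myeloid cells, rose by 0.74 ± 0.084, and the orosomucoid genes Orm1 and Orm2 fell by 0.83 ± 0.079 and 0.65 ± 0.069. Orm1 and Orm2 are near-identical neighbours whose probes may share signal. Haptoglobin, Hp, stood at 0.65 ± 0.19 and factor B, Cfb, at −0.48 ± 0.077, both uncalled. Of 29 measured interferon and antigen presentation genes 0 were called (limma), 9 lay below and 0 above 0 at an unadjusted p under 0.05, and B2m, the light chain of MHC class I, was lowest at −0.70 ± 0.11. B2m read 0.76, 0.32, −2.13 and −1.75, so its sign followed the dye.

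**Figure D3:**
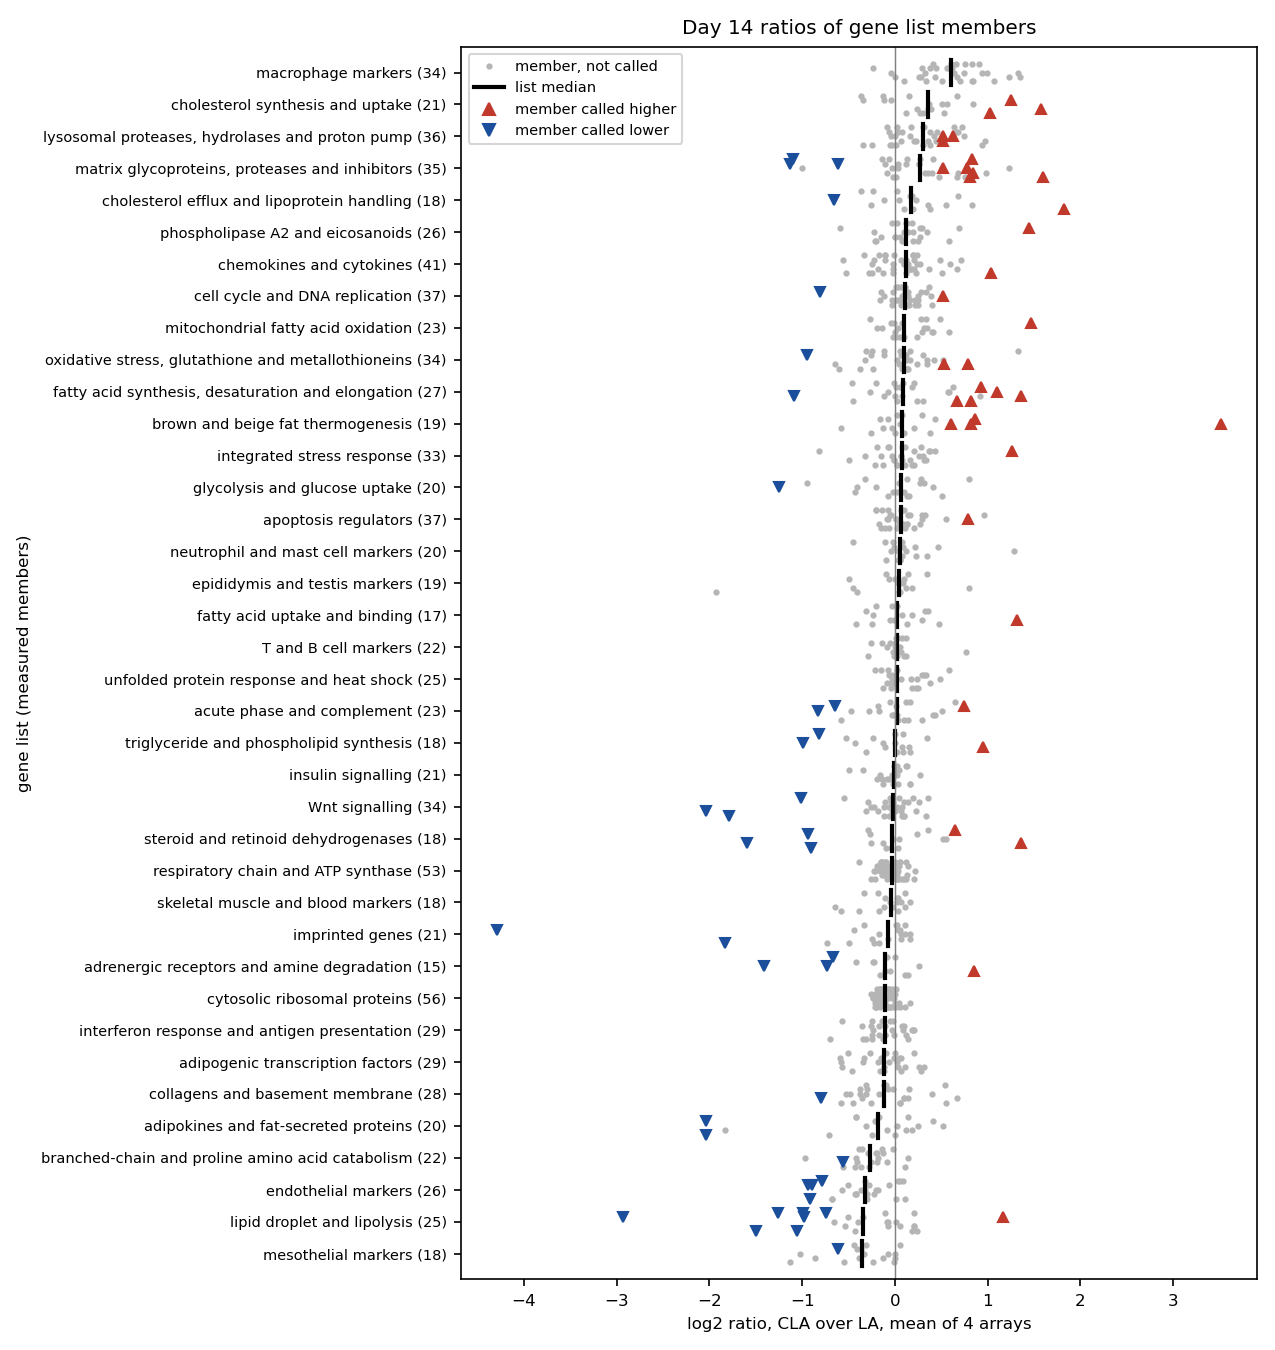
Log2 ratio of CLA over LA (horizontal, mean of the 4 day 14 arrays) of each measured member of 38 gene lists (rows, with the number measured), ordered by list median. Grey dots are members that were not called, red and blue triangles those called higher and lower, and black bars list medians; macrophage markers stand at the top with a median of 0.61 and mesothelial markers at the bottom with −0.35.

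Genes of the extracellular matrix moved both ways. Of 35 measured matrix glycoproteins, proteases and inhibitors 6 rose and 3 fell, or 25.7% called against 1.58% of all genes. The inhibitors of matrix metalloproteinases went opposite ways. Timp1 read 1.63, 1.01, 2.52 and 1.22, all above 1, while Timp4 read −1.10, −1.37, −1.40 and −0.66, all below 0, and Timp3 averaged −0.999 ± 0.15 without a call (adjusted p = 0.0535). Fibronectin, Fn1, rose by 0.85 ± 0.11, thrombospondin 2, Thbs2, by 0.83 ± 0.068, and periostin, Postn, by 0.78 ± 0.11. The metalloproteinases Adam12 and Mmp3 rose by 0.81 ± 0.073 and 0.52 ± 0.071. Adamts5, which cuts aggrecan, read −0.57, −0.84, −1.46 and −1.51 and fell by 1.10 ± 0.078, and Sparcl1 fell by 0.61 ± 0.066, with arrays 1 and 2 near 0. Among 28 measured collagens and basement membrane genes 1 fell and 0 rose (3.57%, against 1.58% of all genes). The fall was that of Nid2, a nidogen that links laminin and collagen IV, at −0.17, −0.35, −1.41 and −1.26. The fibrillar collagen genes Col1a1 and Col3a1 stood at 0.55 ± 0.14 and 0.67 ± 0.20, whereas the basement membrane genes Nid1, Col4a1 and Col15a1 stood at −0.58 ± 0.090, −0.37 ± 0.12 and −0.52 ± 0.082, none called. Nid1 read 0.43, 0.10, −1.55 and −1.31, so its sign followed the dye.

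In Wnt signalling, which restrains fat cell formation, 3 of 34 measured genes fell and 0 rose, and the list median was −0.024. The falls were Sfrp5, given above, Apcdd1, a membrane Wnt inhibitor, at −1.34, −1.55, −2.56 and −1.72, and the receptor gene Fzd4 at −0.52, −0.39, −1.76 and −1.38. All 4 arrays were below 0 for each. The inhibitor gene Dkk2 stood at −0.55 ± 0.13, uncalled.

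Endothelial markers lay mostly below 0. Of 26 measured members 4 fell and 0 rose (15.4%, against 1.58% of all genes), 21 lay below 0, and the median was −0.32 (by array −0.31, −0.59, −0.32 and −0.17 on arrays 1 to 4). Aqp1, the water channel of capillary endothelium, read −0.83, −0.97, −0.76 and −1.08. Ramp2, a co-receptor for adrenomedullin, read −0.33, −0.86, −1.26 and −1.11, and Tie1, an endothelial receptor kinase, fell by 0.79 ± 0.083. Cldn5, which seals endothelial junctions, read −1.33, −1.81, −0.60 and −0.011 and was near 0 on array 4. Pecam1, the pan-endothelial adhesion gene, stood at −0.30 ± 0.087 without a call. It read −0.87, −0.96, 0.12 and 0.49, so its sign followed the dye. Vwf, which encodes von Willebrand factor, stood highest of the list at 0.10 ± 0.082, a mean of 2 probes of opposite sign. Of 18 measured mesothelial markers 1 fell and 0 rose (5.56%). Among these markers 16 lay below 0, and the median was −0.35 (by array −0.26, −0.059, −0.67 and −0.32 on arrays 1 to 4). Krt19, a keratin of simple epithelia, read −0.62, −0.55, −0.68 and −0.62, close together on all arrays. Msln, the gene of mesothelin, averaged −1.02 ± 0.15 and Upk1b, a uroplakin, −1.13 ± 0.19, without a call.

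**Figure D4:**
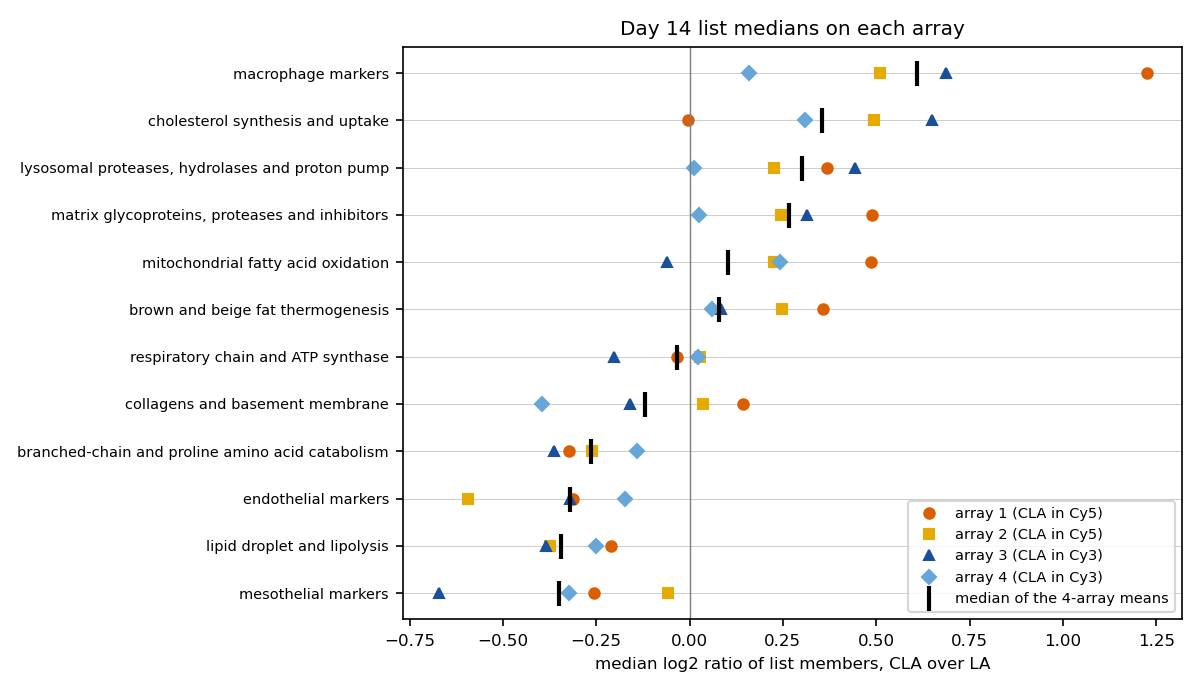
Median log2 ratio of the measured members of 12 gene lists (rows) on each day 14 array (horizontal, CLA over LA). Circles and squares are arrays with CLA in Cy5, triangles and diamonds arrays with CLA in Cy3, and black ticks give the median of the members' 4-array means; macrophage markers were positive on every array, and endothelial, droplet and mesothelial markers negative on every array.

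Other cell type lists gave no calls. Of 22 measured T and B cell markers 0 were called (limma, 1 above and 1 below 0 at an unadjusted p under 0.05), with a median of 0.026 and Il7r highest at 0.77 ± 0.25. Of 20 neutrophil and mast cell markers 0 were called (limma, 3 above and 1 below). The mast cell protease Cpa3 read 2.20, 3.06, −0.48 and 0.37 (adjusted p = 0.0526), and the mast cell chymase gene Cma1 0.21, 0.54, 0.20 and 0.45 (adjusted p = 0.134), whereas the mast cell receptor gene Kit stood at −0.45 ± 0.11. Of 19 epididymis and testis markers 0 were called (limma, 2 above and 2 below). Lcn5, a lipocalin of the epididymis, read −0.16, −2.45, −5.03 and −0.087. Of 18 muscle and blood markers 0 were called (limma, 0 above and 2 below), with a median of −0.037. Cytosolic ribosomal protein genes ran from −0.25 to 0.16, with 0 of 56 called (limma, 0 above and 7 below).

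Enzymes of steroids, retinoids and amines were called often. Of 18 measured steroid and retinoid dehydrogenases 2 rose and 3 fell (27.8%, against 1.58% of all genes). Hsd11b1, which regenerates active glucocorticoid in fat, read −0.99, −1.36, −2.26 and −1.78 (adjusted p = 0.0202). The retinaldehyde dehydrogenase gene Aldh1a1 read −0.25, −0.79, −1.56 and −1.15 and fell by 0.94 ± 0.12, the alcohol dehydrogenase gene Adh1 fell by 0.90 ± 0.10 with array 2 above 0, and Aldh1a3, which makes retinoic acid too, rose by 0.65 ± 0.067. Hsd17b12, counted here as well, is given above. Of 15 measured genes of adrenergic signalling and amine breakdown 1 rose and 3 fell. The monoamine oxidases moved in opposite directions: Maoa read 1.32, 1.06, 0.66 and 0.35, and Maob read −0.23, −0.049, −1.55 and −1.10. Aoc3, the amine oxidase on the adipocyte surface, read −0.47, −0.94, −2.28 and −1.94, and Npr3, which clears natriuretic peptides, fell by 0.67 ± 0.093. In the list of phospholipase A2 and eicosanoid genes 1 of 26 rose and 0 fell (3.85%, against 1.58% of all genes). The secreted phospholipase Pla2g2e read 0.89, 1.96, 1.46 and 1.48, and the uncalled Ptgs2 (cyclooxygenase 2) and Hpgds stood at 0.59 ± 0.13 and 0.69 ± 0.13.

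Apoptosis is among the subjects the labels name. Of 37 measured regulators 1 rose and 0 fell (2.70%, near the 1.58% of all genes), and the median was 0.062. The riser was Tnfrsf12a, the receptor of the TNF family ligand TWEAK, at 0.085, 0.048, 1.67 and 1.36, so arrays 1 and 2 were near 0. Casp9, the initiator caspase of the mitochondrial route, averaged 0.96 ± 0.15 without a call (limma adjusted p = 0.054). Casp9 read −0.32, 0.035, 1.65 and 2.46. Gadd45b averaged 0.56 ± 0.13 (0.010, −0.30, 1.60 and 0.91) and Bbc3 0.33 ± 0.069 (−0.26, −0.17, 0.92 and 0.82), neither called. For Casp9, Gadd45b and Bbc3 alike, the dye term was larger in size than the mean. In the cell cycle 1 of 37 measured genes rose and 1 fell (5.41%). Cdk1, the kinase of mitosis, rose by 0.52 ± 0.068, and Cdkn2c, an inhibitor of cyclin D kinases, read −0.17, −0.42, −1.30 and −1.32 and fell by 0.80 ± 0.076. The proliferation genes Top2a and Mki67 stood at 0.40 ± 0.076 and 0.25 ± 0.073, uncalled. Top2a read 0.060, −0.077, 0.91 and 0.70, so arrays 1 and 2 were near 0.

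The remaining genes among the 25 highest calls included regulators outside these lists. Fosl1, an AP-1 subunit, read 1.27, 0.78, 0.98 and 0.86, Plk3, a polo-like kinase, 0.45, 0.92, 1.65 and 1.39, and Mark1, a microtubule affinity kinase, 0.53, 1.41, 1.06 and 1.32. S100g, a vitamin D-dependent calcium-binding protein, had all 4 arrays above 1, at 1.26, 2.90, 2.20 and 4.36, but was not called (adjusted p = 0.054). Nabp1, which binds single-stranded DNA, read 1.64, 1.54, 0.31 and 0.41 and was higher with CLA in Cy5. Agpat2, 0610040J01Rik, Olfr63, Pax5 and Lars2 were higher on arrays 3 and 4 than on arrays 1 and 2. Lars2, the mitochondrial leucyl-tRNA synthetase, read −0.86, −0.19, 2.76 and 2.78 and was called at an adjusted p of 0.0315 despite opposite signs. The uncharacterised 0610040J01Rik read 0.12, 0.19, 1.89 and 2.34, the olfactory receptor Olfr63 0.23, 0.75, 2.15 and 1.38 and the B cell factor Pax5 0.16, 0.63, 1.78 and 1.19. Of the 260 called genes, 19 had a dye coefficient larger in size than their mean ratio, as Lars2 did.

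Among the 25 lowest calls, the falls of transport and signalling genes held on every array. Tmem45b, a membrane protein, read −1.97, −2.01, −3.01 and −2.55 (adjusted p = 0.00724), the second smallest p of the genes named here. Inpp1, an inositol phosphatase, read −1.48, −1.60, −1.75 and −1.25, and Sucnr1, the receptor through which succinate restrains lipolysis, −0.66, −1.03, −2.54 and −1.90. The glutamate transporter gene Slc1a3 read −1.03, −1.86, −2.54 and −1.29, and the neutral amino acid transporter genes Slc1a5 and Slc38a5 read −0.79, −1.22, −2.04 and −1.67 and −1.14, −0.51, −1.97 and −2.45. Eepd1, of an exonuclease family, read −0.74, −1.28, −2.29 and −1.81, and the beta-defensin Defb12 −0.76, −1.61, −1.16 and −1.53. Ehd3, an endocytic recycling protein, read −0.10, −1.13, −2.18 and −2.34, the zinc finger gene Zfp235 −0.26, −0.54, −2.44 and −2.10, and Art3, of the ADP-ribosyltransferase family, −0.47, −0.11, −2.69 and −1.67. Chst14, which sulfates dermatan, read −0.32, −0.54, −2.12 and −1.80 and the vomeronasal receptor Vmn1r42 −0.084, −0.35, −2.32 and −1.89. These last 5 were nearer 0 on arrays 1 and 2 than on arrays 3 and 4.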

How the data were processed

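RNA pools of epididymal fat were compared on 4 arrays of 2 channels at day 14; arrays were grouped by the day and dyes in their labels. The authors' deposited table holds 1 value per probe and array for 22393 probes, read here as log10 ratios, a unit inferred from the values. The sources used here give no scanner settings, background treatment or normalization, so how these acted on the ratios, as on dim spots, is unknown. Values were multiplied by 3.32 to log2. Of the probes 18218 had 1 gene symbol, 16 several and 4159 none listed; 18175 were matched by Entrez number to the RefSeq table (GRCm38.p6, names and promoters). Probes of a gene were averaged, giving 16504 genes, of which 1193 had more than 1 probe and 543 of those had probes of opposite sign. Sample columns left unmapped numbered 0.

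The fit used limma 3.58.1 (lmFit, eBayes; R 4.3.3) with an intercept and a dye term over the 4 arrays, leaving 2 residual degrees of freedom (5.39 after moderation). A gene was called where its p, adjusted by Benjamini-Hochberg over all genes, was under 0.05, and each ± is a standard error. The dye term takes up the difference between orientations, so a small standard error does not mean that all 4 arrays agree. For Lars2 it was 0.12 with the dye term and 0.70 without. An exact sign-flip test of 4 arrays cannot go below p = 0.125. The fit was tested on 4 simulated arrays with 200 changed genes, and 17 of its 204 calls were false. Of 50 genes changed by 0.5 log2 units 37 were called. The simulated noise was independent between arrays, so this test cannot show how the calls depend on single real arrays.

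The members and the 38 gene lists, written from general knowledge, were chosen with earlier results of these data known. Genes named are the 25 highest and 25 lowest called genes, up to 3 called members with the largest change of each list, and 17 measured genes of a fixed set (1 rose and 1 fell), 94 in all. The other 98 were chosen after their values were seen. Alternatives changed the sign of arrays 3 and 4, the dye term, the arrays used, centring, scaling, the summary of probes, the variance prior, array weights and the log base.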

Additional observations from a re-analysis of the deposited data

Results flagged for a closer look

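Among the 4 arrays, an array standing far from the other 3 by Dixon's test was found for 2 of 192 named genes and 1 of 39 list medians; chance gives such a value in about 1 in 20 groups. Fabp3, the fatty acid carrier of muscle and brown fat, read 0.53 on array 1, against 1.55, 1.57 and 1.60 on the others. Apoc1 read −0.39 on array 4, against −0.76, −0.76 and −0.72. The median of the genes of the unfolded protein response and heat shock was −0.041 on array 1, against 0.19, 0.19 and 0.20.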

How the results depend on the processing

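Leaving out 1 array in turn gave 1 to 156 called genes (1 to 52 higher and 0 to 104 lower) and 0 to 303 probes, against 260 genes (88 and 172) and 96 probes with all 4. Without the dye term limma called 1 gene (1 higher, 0 lower) and 1 probe. A fit of all 8 arrays, and the same fit with array number as a replicate block, gave 0 genes and 0 probes each, with 1612 and 1391 genes at an unadjusted p under 0.05; array numbers share no stated source, and the day 14 means in these fits are those of the 4 arrays by construction. Centring, scaling to a common spread, quantile normalization, other probe summaries, a robust prior, array weights, leaving out strong-dye features and reading the values as log2 gave 187 to 315 called genes. The first probe of each gene gave 58 higher genes, scaling gave 0 probes and quantile normalization 178 probes. Uncalled genes near 0 took the other sign in single settings: Asns (−0.074 to 0.048), Lep (−0.033 to 0.041), Scd1 (−0.055 to 0.22) and Ccl2 (up to 0.0086) with 1 array left out, and Lep at −0.028 when scaled and −0.034 with quantile normalization. The causes were not tested. With no intensities, signal over background could not set a limit, and 2 residual degrees of freedom limit the precision.

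Turning the sign of arrays 3 and 4 gave 5248 called genes (2780 higher, 2468 lower) and 7055 probes, and took 131 of 192 named genes to the other side of 0. By construction, the turned value of a gene equals its dye term in the main fit, so the turned values below are those dye terms. Turned list medians kept their side of 0 for macrophage (0.21), lysosomal (0.093), matrix glycoprotein (0.063) and endothelial genes (−0.11), and changed it for droplet (0.24), cholesterol synthesis (−0.06) and mesothelial genes (0.05). Higher when turned were B2m 1.24, Art3 0.95, Vmn1r42 0.94, Zfp235 0.93, Nid1 0.85, Ehd3 0.82, Adh1 0.77, Chst14 0.76, Cidec 0.75, Adipoq 0.72, Pfkfb3 0.72, Aoc3 0.70, Slc38a5 0.69, Sucnr1 0.69, Gstm3 0.67 and Nnat 0.67. Values above 0 when turned also included Sparcl1 0.65, Lcn5 0.63, Cav2 0.62, Lpl 0.62, Zfp423 0.61, Car3 0.61, Maob 0.59, Timp3 0.58, Fzd4 0.56, Nid2 0.54, Mest 0.53, Rbp4 0.52, Eepd1 0.52, Insig2 0.51, Cdkn2c 0.51 and Cd36 0.50. Among further genes above 0 when turned were Gstm1 0.48, Pparg 0.48, Aldh6a1 0.47, Plin4 0.43, Pnpla2 0.43, Slc1a5 0.43, Hsd11b1 0.42, Aldh1a1 0.42, Gata2 0.41, Tmem45b 0.40, Adamts5 0.39, Igf2 0.38, Apcdd1 0.35, Ccr2 0.35, Cxcl9 0.32 and Vmn1r217 0.31. Above 0 when turned were also Srebf1 0.30, Ramp2 0.29, Dkk2 0.29, Slc7a10 0.29, Pck1 0.28, Upk1b 0.24, Plin1 0.24, Foxo1 0.24, Slc1a3 0.23, Ccl2 0.17, Retn 0.15, G0s2 0.13, Ndufb3 0.12, Sgce 0.10, Defb12 0.081 and Kit 0.074. Higher when turned were Msln 0.066, Col15a1 0.048, Krt19 0.034, Col4a1 0.032, Orm2 0.030, Apoe 0.013 and Aqp1 0.011. Lower when turned were Lars2 −1.65, Psap −1.17, Casp9 −1.10, Pgd −0.99, 0610040J01Rik −0.98, Agpat2 −0.79, Tnfrsf12a −0.72, Gadd45b −0.70, Hp −0.64, Olfr63 −0.64, Acly −0.62, S100g −0.60, Ebp −0.57, Pax5 −0.55, Bbc3 −0.54 and Pltp −0.53. Values below 0 when turned also included Pfkl −0.46, Cidea −0.46, C5ar1 −0.46, Scd1 −0.42, Plk3 −0.42, Atp6v1b2 −0.41, Top2a −0.41, Gla −0.40, Fdps −0.38, Cox7a1 −0.37, Lss −0.31, Hsd17b12 −0.30, Acacb −0.30, Atf3 −0.29, Slc25a20 −0.28 and Mmp3 −0.28. Among further genes below 0 when turned were Timp1 −0.28, Atp6v1a −0.27, Fabp3 −0.27, Lep −0.27, Hspa5 −0.26, Adam12 −0.26, Cox8b −0.26, Fn1 −0.26, Cdk1 −0.26, Cd300lf −0.22, Pkm −0.21, Ccl8 −0.21, Aldh1a3 −0.18, Tnf −0.17, Uqcrq −0.15 and Vwf −0.14. Below 0 when turned were also Srxn1 −0.14, Msr1 −0.12, Mark1 −0.11, Gpnmb −0.10, Ctsd −0.076, Ucp1 −0.076, Elovl3 −0.063, Sqle −0.060, Hpgds −0.055, Cpt1b −0.041, Ctsk −0.038 and Pla2g2e −0.023.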

Other observations

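Amino acid transporters held a larger share of calls than other gene families looked at, although the families were chosen after the values were seen and were not tested as sets. Of 39 measured members of the Slc1a, Slc3a, Slc7a, Slc36a, Slc38a and Slc43a families, 1 rose and 4 fell (12.8%, against 1.58% of all genes), with a median of −0.014. The falls were Slc1a3, Slc1a5, Slc38a5 and Slc7a10, given above. Slc36a2, a carrier of small amino acids that brown fat expresses, read 1.06, 0.86, 0.58 and 0.25 on arrays 1 to 4 and rose by 0.69 ± 0.088 (SE, n = 4 arrays; limma adjusted p = 0.043). All 4 arrays of Slc36a2 were above 0, highest with CLA in Cy5. Over all 326 measured solute carriers 2.15% were called.

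Olfactory and vomeronasal receptors, sensory receptors of the nose, gave 1 rise and 2 falls in 848 measured genes (0.354%). Vmn1r217 read −0.31, −0.16, −0.85 and −0.87 on arrays 1 to 4 and fell by 0.55 ± 0.070. Together with Olfr63 and Vmn1r42, these calls were larger in size on arrays 3 and 4 than on arrays 1 and 2.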
